A study of Mus musculus with 18 samples.

Results

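Loss of CCR2 was examined in forestomachs of mice that never received carcinogen. The comparison set 3 CCR2-/- controls against 3 wild-type (WT) controls, 6 of the 18 mouse forestomach libraries of the series, chosen by their labels. All 6 mice were males of the C57BL/6 strain. Both control groups were gavaged with 1% carboxymethyl cellulose alone, the vehicle, in 2 doses a week over 5 weeks, and forestomachs were collected when week 25 ended. The other 12 libraries, 6 WT and 6 CCR2-/-, came from mice gavaged with the esophageal carcinogen N-nitrosomethylbenzylamine (NMBA) at 0.25 mg/kg on the same schedule, and serve to see whether a genotype difference found in controls was also present in other mice, and also enter the expression filter and the estimate of spread behind the control test. The knockout is the Ccr2tm1Ifc/J line of the Jackson Laboratory, a germline deletion present in every cell type, and mice bred for the study were used between 4 and 8 weeks of age. C57BL/6 mice were bought from another supplier at 6 weeks of age, and whether WT mice of this experiment were littermates is not given in the sources used here, so genotype and colony cannot be told apart. The library codes of the 6 controls also follow genotype, each letter belonging to 1 group. Nothing in the labels states that replicates are separate animals, so p-values measure the spread between these samples.

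CCR2 is the chemokine receptor that lets inflammatory monocytes leave the bone marrow and enter tissue along gradients of its ligands, chiefly CCL2 and, in mice, CCL7 and CCL12. In tissue such monocytes become macrophages and monocyte-derived dendritic cells, while self-renewing resident macrophages and Langerhans cells depend on it less. The rodent forestomach is lined by keratinized squamous epithelium like the esophagus, and borders the acid-secreting glandular stomach. In whole tissue, fewer cells of a type and less RNA per cell cannot be told apart.

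Ccr2 (ENSMUSG00000049103, chromosome 9 of GRCm38 from 124101950 to 124113557) checked the genotype labels. It measured 2.37, 1.83 and 2.34 FPKM (sequenced fragments corrected for transcript length and library size) in the WT controls and 0.0443, 0.0546 and 0 FPKM in the CCR2-/- controls. Every knockout library lay far below every WT library. On the log2(FPKM + 1) scale used for all fold changes here, which understates the change of weakly expressed genes, the difference was -1.62 (standard error, SE, 0.17, adjusted p = 0.000329 from limma over 14765 genes tested). Over controls and NMBA mice, the 9 knockout libraries stayed at or under 0.0798 FPKM, and the lowest of 9 WT libraries had 1.3 FPKM.

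The libraries otherwise matched their label as squamous forestomach, with squamous markers (keratins and Trp63, 4 entries) summing to 9779 to 11877 FPKM, but each also held RNA of glandular stomach. The summed level of 9 glandular markers ran from 4437 to 49787 FPKM in WT and from 25927 to 42390 FPKM in CCR2-/- controls. The leading one, pepsinogen C (Pgc), took 0.412% of all FPKM in WT replicate 1 and 9.23% in WT replicate 3. Both pancreas markers chosen for the check lacked an entry of their own, but 5 other pancreatic acinar genes (Clps, Cela1 and Cel the most abundant) summed to 815, 3255 and 17274 FPKM in WT and 9455, 11205 and 7613 FPKM in CCR2-/- controls, with WT replicate 1 lowest and WT replicate 3 highest as for the glandular sums. The label of esophageal cancer as the cell type is also given to these controls. Pearson's r across genes between control libraries was 0.955 to 0.985 over 15 pairs. Read from the spacing of the lowest values, relative depth was 1 to 1.37 times that of WT replicate 1, and absolute depth is unknown. The male label was matched by Ddx3y, a Y-linked gene, at 9.02 to 11.5 FPKM in all 6.

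Ccr2 was the only gene that passed in controls, lower in CCR2-/- mice (1 of 14765 genes, 0.00677%), and no gene passed in the higher direction (0 genes, 0%). At an unadjusted p under 0.05 there were 754 genes, where 738 would be reached if no gene differed. Of these, 415 were higher (2.81%) and 339 were lower (2.30%). All 3 knockout values lay above all 3 WT values in 660 genes (4.47%) and below them in 700 genes (4.74%). The median log2 fold change over all genes was -0.0011, and 49.6% of genes had a positive value. In a simulation drawn from these data with 200 genes altered, the same test recovered 71% of genes changed by 1 on the log2 scale and 96.5% of genes changed by 2, all with a mean log2(FPKM + 1) above 1, with 9 false calls each time. Its noise was drawn separately for each gene, without variation shared across a library such as glandular content. Planting 200 changes also loosens the adjusted threshold beyond that of the real comparison, where 1 gene passed. These shares therefore do not tell how many changed genes the real comparison would miss. An exact permutation test of 3 against 3 for a single value cannot go below p = 0.1, so limma's spread, shared by the 4 groups, carries every p given here.

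The control differences were then read gene by gene in the NMBA mice, whose values are not part of the control fold changes but share their filter and spread. Under NMBA, 7 genes passed between the genotypes (0.0474% of genes), and 930 had an unadjusted p under 0.05 (6.30%). Of 173 genes with an unadjusted p under 0.01 in controls, 122 had the same sign under NMBA (70.5%, against 47.7% of all genes), and 35 had the same sign together with p under 0.05 under NMBA (20.2%, against 2.99% of all genes). Another 4 had the opposite sign at that p. With the 6 controls and the 12 NMBA libraries fitted separately, a choice made after seeing the data, 185 genes had p under 0.01 in controls, and 23 of them had the same sign with p under 0.05 under NMBA (12.4%, against 3.14% of all genes), while 3 genes passed under NMBA. All 7 genes that passed under NMBA had the same sign in controls, and 6 of them were among the 173. In 7 of the 35 genes, namely Ccr2, Xcr1, Tmem254b, Lyz1, Adss, Zfp932 and Clec4b1, all 9 CCR2-/- libraries lay on one side of all 9 WT libraries. Both comparisons had been used to pick the 35, which favours such separation, and its share over all genes was not counted. The expression filter favours it too where 1 genotype alone reached its 0.5 FPKM. That was so for Ccr2 and Clec4b1, through WT libraries, and for Xcr1, through CCR2-/- libraries. The test of the difference between the 2 genotype effects passed for 0 genes, with 673 at an unadjusted p under 0.05 (limma).

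**Figure D1:**
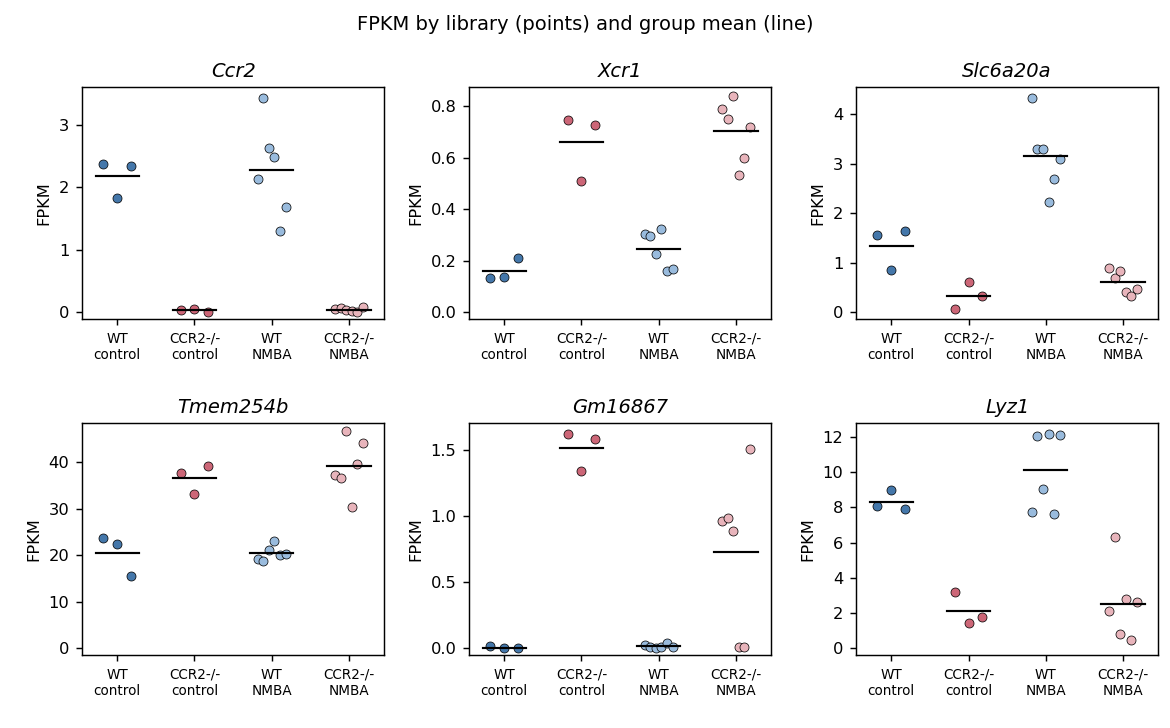
FPKM (y axis, linear, own range in each panel) of 6 genes in each of the 18 libraries (points) by group (x axis), with the group mean as a line. The genotypes do not overlap for Ccr2, Xcr1, Tmem254b and Lyz1, Slc6a20a overlaps in 1 knockout library, and Gm16867 is near 0 in all WT libraries and in 2 of the 9 knockout libraries.

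Genes beside Ccr2 on the chromosome were examined first. Within 1000 kb of Ccr2, 22 entries of 20 genes were tested, and 8 of them (36.4%, against 5.11% of all genes) had an unadjusted p under 0.05 in controls. Without Ccr2 there were 7, of which 5 had the same sign and p under 0.05 under NMBA. These counts are of entries, not genes. All entries of Ppp2r3d are among the 7, and some of them among the 5, so fewer genes stand behind both. No neighbour passed adjustment in controls.

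Xcr1 encodes the receptor for XCL1 that marks cross-presenting dendritic cells, and lies 239.9 kb from Ccr2. It measured 0.134, 0.135 and 0.21 FPKM in WT controls and 0.744, 0.51 and 0.727 FPKM in CCR2-/- controls, so the groups did not overlap. It reached the filter's 0.5 FPKM in CCR2-/- libraries alone, which favours such separation. The log2 fold change was 0.52 (SE 0.09, adjusted p = 0.233 from limma) in controls and 0.45 (adjusted p = 0.00917) under NMBA. Batf3, a transcription factor those dendritic cells need, measured 0.152, 0.363 and 0.308 FPKM in WT and 0.376, 0.124 and 0.195 FPKM in CCR2-/- controls, which overlap.

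Slc6a20a, a sodium-coupled transporter of proline and related imino acids, lies 423 kb from Ccr2. WT controls had 1.57, 0.847 and 1.63 FPKM and CCR2-/- controls 0.0626, 0.618 and 0.33 FPKM. All knockout values lay below all WT values, with a log2 fold change of -0.82 (SE 0.20, adjusted p = 0.523 from limma) in controls and -1.37 (adjusted p = 0.000115) under NMBA.

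Ppp2r3d, annotated as a regulatory subunit of protein phosphatase 2A, has 3 entries at 309 kb on the other side of Ccr2. The entry with the largest difference measured 5.86, 6.39 and 4.88 FPKM in WT and 0.567, 1.09 and 1.63 FPKM in CCR2-/- controls, a log2 fold change of -1.70 (SE 0.40, adjusted p = 0.474 from limma). The other 2 entries had values of -0.84 and -0.42 on the same scale. The entry with -0.84 in controls had 0.13 under NMBA, while the other 2 kept a negative value there.

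Other genes of the receptor cluster showed smaller values. Ccr3, the eotaxin receptor, had a log2 fold change of 0.16 in controls and Ccr1, another receptor of inflammatory chemokines, had 0.06. Cxcr6, carried by tissue-resident T cells, measured 0.643, 0.858 and 0.581 FPKM in WT and 0.787, 1.38 and 2.23 FPKM in CCR2-/- controls, with overlapping groups. Fyco1, Lztfl1, Sacm1l, Limd1, Cdcp1, Clec3b and Tmem158 were among the 14 neighbouring entries that missed the unadjusted threshold, and apart from Lars2 these had log2 fold changes from -0.21 to 0.50. Lars2, the mitochondrial leucyl-tRNA synthetase, measured 13.1, 507 and 7.35 FPKM in WT and 111, 174 and 251 FPKM in CCR2-/- controls, so the knockout values lay between the WT values. Zdhhc3, a palmitoyltransferase 988.7 kb away, had 0.24 (unadjusted p = 0.0201 from limma) with no overlap in controls and 0.04 under NMBA.

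**Figure D2:**
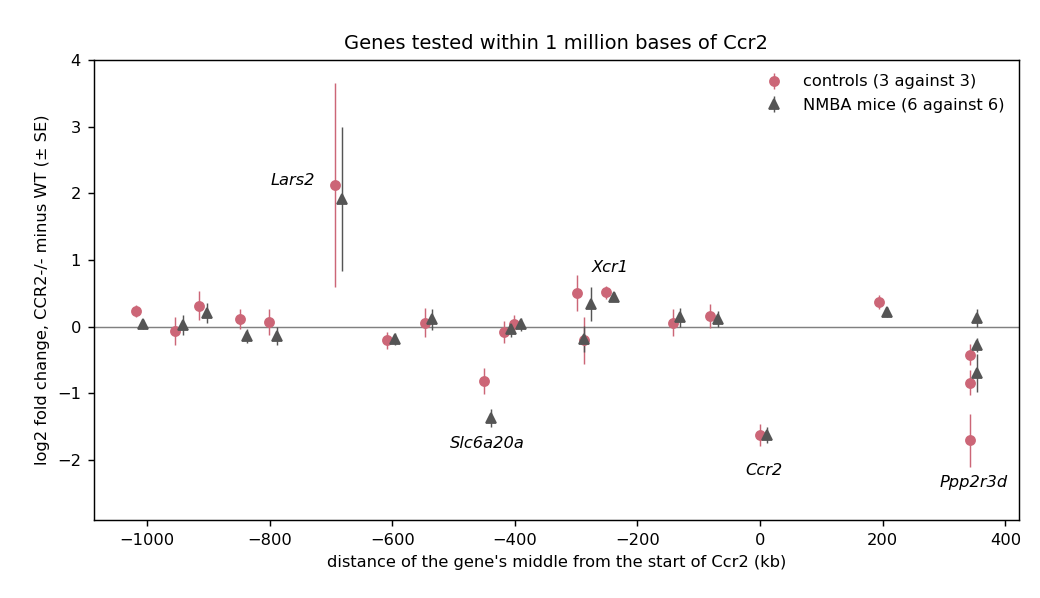
Log2 fold change of CCR2-/- against WT (y axis, points with SE) for tested entries by their distance in kb from Ccr2 (x axis), in controls (circles) and under NMBA (triangles). Ccr2 has -1.62 in both comparisons, Slc6a20a has -0.82 and -1.37, Xcr1 has 0.52 and 0.45, and most other neighbours lie near 0.

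A pair of stretches of chromosome 14, chosen after their values were seen, held further entries that separated the control genotypes. Of 489 genes tested on that chromosome, 13 had an unadjusted p under 0.01 in controls (2.66%, against 1.17% of all genes, 1.98% on chromosome 3 and 1.82% on chromosome 9), and 7 of those had the same sign and p under 0.05 under NMBA. Tmem254b, a transmembrane protein gene with near-identical copies beside it, lies from 26203369 to 26207041. It measured 23.7, 22.5 and 15.5 FPKM in WT and 37.8, 33.1 and 39.2 FPKM in CCR2-/- controls. All knockout values were above all WT values, with a log2 fold change of 0.82 (SE 0.16, adjusted p = 0.233 from limma) in controls and 0.89 (adjusted p = 0.00159) under NMBA. Its copy Tmem254c had 0.85 in controls and 0.65 under NMBA, and reads of such copies can be split between them.

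The second stretch runs from 69337174 to 69695834 and holds Entpd4, a nucleotide-hydrolysing enzyme of the Golgi and lysosome, the predicted genes Gm16867, Gm27177 and Gm21685, and Loxl2. Gm16867 measured 0.0208, 0 and 0 FPKM in WT controls and 1.62, 1.34 and 1.59 FPKM in CCR2-/- controls (adjusted p = 0.233 from limma). It reached at most 0.0412 FPKM in any of the 9 WT libraries. Gm16867 and the main entry of Gm27177 reached the filter's 0.5 FPKM in CCR2-/- libraries alone. Entpd4 measured 2.54, 1.76 and 2.38 FPKM in WT and 4.43, 3.96 and 3.89 FPKM in CCR2-/- controls, a log2 fold change of 0.66 (SE 0.15, adjusted p = 0.474 from limma). Under NMBA the knockout mice were not alike at these entries. Gm16867, Entpd4, Gm21685 and the main entry of Gm27177 each lay above the whole WT range in 7 of 9 CCR2-/- libraries, and in all 4 the others were CCR2-/- NMBA replicates 4 and 5. By their coordinates Gm16867 overlaps Entpd4 and Gm27177 overlaps Gm21685, so these entries are not independent. Loxl2, a collagen-crosslinking oxidase in the same stretch, had 0.31 (unadjusted p = 0.354 from limma) in controls.

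Of the genes that passed under NMBA, Lyz1, Zfp932 and Tifab lie on other chromosomes. Lyz1 encodes the lysozyme form of Paneth cells, and its near-identical relative Lyz2 is the form of macrophages, neutrophils and monocytes. Lyz1 measured 8.09, 8.97 and 7.92 FPKM in WT and 3.23, 1.44 and 1.76 FPKM in CCR2-/- controls. The groups did not overlap, with a log2 fold change of -1.61 (SE 0.41, adjusted p = 0.566 from limma) in controls and -1.83 (adjusted p = 0.0201) under NMBA. Lyz2 measured 111, 147 and 126 FPKM in WT and 119, 99.9 and 97.5 FPKM in CCR2-/- controls, with a log2 fold change of -0.27 (SE 0.28). Reads shared by Lyz1 and Lyz2 may have been divided between them.

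Clec4b1, a C-type lectin of myeloid cells, measured 0.552, 0.917 and 0.388 FPKM in WT controls and 0.184, 0.176 and 0.165 FPKM in CCR2-/- controls. The log2 fold change was -0.45 (SE 0.15, adjusted p = 0.801 from limma), and under NMBA it was -0.55 (adjusted p = 0.12). Zfp932, a zinc finger gene, had 0.45 in controls (adjusted p = 0.796) and 0.57 under NMBA (adjusted p = 0.039). Adss, an enzyme of AMP synthesis, had 0.48 and 0.42 (adjusted p = 0.749 and 0.225). In all 3 the 9 knockout libraries lay outside the range of the 9 WT libraries. Clec4b1 reached the filter's 0.5 FPKM in WT libraries alone. Tifab, the remaining gene that passed under NMBA, had only -0.23 in controls (SE 0.15, adjusted p = 1) but no overlap there.

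Monocyte and macrophage genes were the group most directly tied to CCR2, and as a group they sat close to the median of all genes in controls. Of 7 inflammatory monocyte markers tested, 4 had positive values and the median log2 fold change was 0.04. Ly6c2, which defines those monocytes, measured 0.336, 0.609 and 0.615 FPKM in WT and 0.736, 0.793 and 0.567 FPKM in CCR2-/- controls, and F13a1 had 0.04. Plac8 carried the largest value of the list (1.47, unadjusted p = 0.0168 from limma), with 11.2, 14.9 and 26.2 FPKM in WT and 24.9, 83.5 and 51 FPKM in CCR2-/- controls, which overlap. Within each genotype these values ranked the libraries in the same order as the glandular sums, and the part of tissue content was not tested.

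Of 17 macrophage markers, 10 were positive with a median of 0.06, and their summed level was 234 to 293 FPKM in WT and 235 to 263 FPKM in CCR2-/- controls. Csf1r, the receptor that macrophages need to survive, measured 9.56, 8.02 and 11.7 FPKM in WT and 9.7, 9.21 and 11.5 FPKM in CCR2-/- controls. Adgre1, which encodes F4/80, had 0.04 (SE 0.26) and the complement gene C1qb had 0.11 (SE 0.28). Those sums overlap almost completely. Timd4, a phosphatidylserine receptor of long-lived resident macrophages, was the 1 member at an unadjusted p under 0.05 (2.81% of all genes higher). It measured 0.461, 0.47 and 0.344 FPKM in WT and 1.45, 1.29 and 1.11 FPKM in CCR2-/- controls. Its log2 fold change was 0.68 (SE 0.22, adjusted p = 0.797 from limma) in controls and 0.56 (unadjusted p = 0.00183) under NMBA. Cd163, a haemoglobin scavenger receptor of resident macrophages, had 0.48 without overlap (adjusted p = 1).

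Antigen presentation through MHC class II did not separate the controls. Of 9 genes, 5 were positive with a median of 0.02, and Cd74, the invariant chain, measured 135, 240 and 200 FPKM in WT and 219, 172 and 198 FPKM in CCR2-/- controls. Under NMBA the same list had a median of -0.55 with 6 of 9 members at an unadjusted p under 0.05, all lower (6.30% of all genes in either direction). The difference between the 2 genotype effects was tested for each member and passed for 0 of 9, with 3 at an unadjusted p under 0.05 (4.56% of all genes).

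Dendritic and Langerhans cell markers, Xcr1 included, summed to 12.1 to 18.6 FPKM in the control libraries. Of 11 tested with Xcr1, 8 were positive with a median of 0.17. Itgae, the CD103 integrin chain of cross-presenting dendritic cells and of T cells within epithelium, measured 0.0939, 0.231 and 0.264 FPKM in WT and 0.333, 0.856 and 1.38 FPKM in CCR2-/- controls, which do not overlap.

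The ligands of CCR2 were all positive in controls. Ccl12 measured 0.907, 2.46 and 0.958 FPKM in WT and 3.13, 2.39 and 3.52 FPKM in CCR2-/- controls, a log2 fold change of 0.76 (SE 0.24, adjusted p = 0.797 from limma). WT replicate 2 reached the knockout range. Ccl7 had 0.48 without overlap and Ccl2 had 0.19. Under NMBA none of the 3 was positive (median -0.13).

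Other chemokines followed. All 12 CXC and other chemokines tested were positive, with a median of 0.29, and 9 of 14 CC chemokines were positive, with a median of 0.09. Ccl8, a CC chemokine made largely by resident macrophages, measured 7.52, 15.5 and 13.6 FPKM in WT and 31.6, 26.4 and 28.7 FPKM in CCR2-/- controls. Its log2 fold change was 1.23 (SE 0.40, adjusted p = 0.799 from limma), with no overlap, and -0.17 under NMBA. Ccl11, the eosinophil attractant eotaxin, had 0.47, and Cxcl13, the attractant of B cells, had 1.03 with 0.494, 1.51 and 0.976 FPKM in WT and 4.41, 2.49 and 2.36 FPKM in CCR2-/- controls. No chemokine passed adjustment. Among receptors outside the cluster on chromosome 9, 6 of 8 were positive with a median of 0.06, led in level by Ackr3, a scavenging receptor, at 4.3 to 5.47 FPKM.

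Interferon-stimulated genes held more members at an unadjusted p under 0.05 than any other list, without any member passing adjustment. All 28 tested had positive log2 fold changes, against 49.6% of all genes, and their median was 0.70. At an unadjusted p under 0.05 there were 18, all higher (2.81% of all genes), and 0 passed adjustment (smallest adjusted p = 0.796 from limma). With the 6 controls fitted alone the folds were the same and 7 of 28 were at that p. In 4 of 28 all knockout values lay above all WT values (4.47% of all genes). These genes answer type I and type II interferons, and many act against viruses. Their promoters often carry the interferon-stimulated response element. Its core was searched as GAAANNGAAA on both strands (TTTCNNTTTC on the other) in RefSeq promoters of GRCm38.p6, from 250 bases before to 50 after each start. Of 17 listed genes with a promoter in the table, 11 held a match (64.7%), against 1079 of 27025 gene symbols overall (3.99%). The promoters of 4 genes, 300 bases each, are shown because they belong to the 3 listed genes with the largest values among those holding a match and to B2m of MHC class I, with matches in capitals. A match describes letters and is not a measured binding site.
Isg15 (chr4:156200769-156201068, minus strand, 3 overlapping matches from 78 to 66 bases before the start): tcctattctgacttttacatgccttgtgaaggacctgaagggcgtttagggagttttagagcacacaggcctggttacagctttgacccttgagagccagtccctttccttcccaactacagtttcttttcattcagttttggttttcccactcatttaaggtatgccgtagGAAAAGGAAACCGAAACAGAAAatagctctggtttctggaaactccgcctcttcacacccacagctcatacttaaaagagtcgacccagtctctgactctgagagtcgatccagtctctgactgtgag
Ifit1 (chr19:34640639-34640938, plus strand, 2 matches at 104 and 85 bases before the start): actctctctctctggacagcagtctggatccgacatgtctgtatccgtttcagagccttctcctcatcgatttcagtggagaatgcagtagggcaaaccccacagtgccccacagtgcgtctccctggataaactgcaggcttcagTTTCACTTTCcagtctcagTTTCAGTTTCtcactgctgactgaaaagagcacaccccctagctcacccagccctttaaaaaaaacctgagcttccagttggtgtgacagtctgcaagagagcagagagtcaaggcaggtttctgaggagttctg
Rsad2 (chr12:26456403-26456702, minus strand, 1 match at 120 bases before the start): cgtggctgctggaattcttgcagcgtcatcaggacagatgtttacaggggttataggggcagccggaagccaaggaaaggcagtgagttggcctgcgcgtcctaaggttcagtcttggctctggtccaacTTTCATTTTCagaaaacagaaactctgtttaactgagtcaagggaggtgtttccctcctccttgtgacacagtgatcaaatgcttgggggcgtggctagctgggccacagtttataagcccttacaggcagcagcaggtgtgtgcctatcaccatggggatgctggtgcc
B2m (chr2:122147437-122147736, plus strand, 1 match at 139 bases before the start): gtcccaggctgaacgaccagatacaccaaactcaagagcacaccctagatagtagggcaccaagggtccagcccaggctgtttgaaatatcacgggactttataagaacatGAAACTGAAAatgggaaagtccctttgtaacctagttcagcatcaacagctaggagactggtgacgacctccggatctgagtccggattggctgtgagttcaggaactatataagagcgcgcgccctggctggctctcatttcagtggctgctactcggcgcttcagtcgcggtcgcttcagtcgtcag

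Isg15, a ubiquitin-like protein, measured 4.8, 7.61 and 24.6 FPKM in WT and 20, 101 and 59.1 FPKM in CCR2-/- controls. WT replicate 3 lay above the lowest knockout library, and the log2 fold change was 2.22 (SE 0.66, adjusted p = 0.796 from limma). Ifit1, which binds viral RNA caps, measured 1.92, 1.96 and 5.85 FPKM in WT and 3.25, 28.1 and 11 FPKM in CCR2-/- controls (1.55, SE 0.62). Rsad2, the antiviral enzyme viperin, measured 0.819, 0.584 and 1.79 FPKM in WT and 1.15, 10.5 and 2.9 FPKM in CCR2-/- controls (1.19, SE 0.49). In all 3 genes CCR2-/- replicate 2 was highest and WT replicate 3 lay above CCR2-/- replicate 1. Oasl1, a 2'-5'-oligoadenylate synthetase-like gene, was 1 of the 4 with no overlap, at 1.87, 1.63 and 5.1 FPKM in WT and 5.51, 16.4 and 14.6 FPKM in CCR2-/- controls (1.76, adjusted p = 0.796). Irf7, the transcription factor that amplifies type I interferon, had 1.11, and Bst2, which tethers budding viruses, had 0.34. The lowest member, Ifi205, had 0.06.

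CCR2-/- replicate 2 and the glandular content both moved with this list. Summed over members, the level was 94.9, 175 and 209 FPKM in WT and 179, 411 and 296 FPKM in CCR2-/- controls, in the same order of libraries within each genotype as the glandular sums. Without CCR2-/- replicate 2 the median was 0.46, with 27 of 28 positive and 2 at an unadjusted p under 0.05, and without WT replicate 1 it was 0.59, with 4. With a score of glandular stomach genes as covariate, a choice made after seeing the data, it was 0.41, with 27 positive and 4 at that p. Under NMBA the median was 0.16 with 18 of 28 positive and 1 at p under 0.05. The part of tissue content in the list was not tested further.

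MHC class I genes, which present peptides from inside the cell and are induced by interferons, were also all positive. The 10 tested had a median of 0.52, 6 at an unadjusted p under 0.05 (2.81% of all genes) and 0 passing. Of 8 with a promoter in the table, 1 held the response element (12.5%), namely B2m. This shared light chain measured 269, 370 and 391 FPKM in WT and 465, 787 and 544 FPKM in CCR2-/- controls. No values overlapped, and the log2 fold change was 0.78 (SE 0.22, adjusted p = 0.707 from limma). The heavy chain gene H2-K1 had 0.75 and H2-D1 had 0.44 (both with overlap), and the peptide transporter Tap1 had 0.63. H2 heavy chain genes are near-identical, so reads can be split among them. The summed level was 493, 675 and 734 FPKM in WT and 803, 1298 and 966 FPKM in CCR2-/- controls, which do not overlap, whereas under NMBA both genotypes spanned 884 to 1275 FPKM. Without CCR2-/- replicate 2 the median was 0.42 with 1 member at an unadjusted p under 0.05. With the glandular covariate it was 0.45 with 2. Under NMBA it was -0.07, and 5 of 10 members had an unadjusted p under 0.05 for the difference between the genotype effects (4.56% of all genes), with 0 passing.

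**Figure D3:**
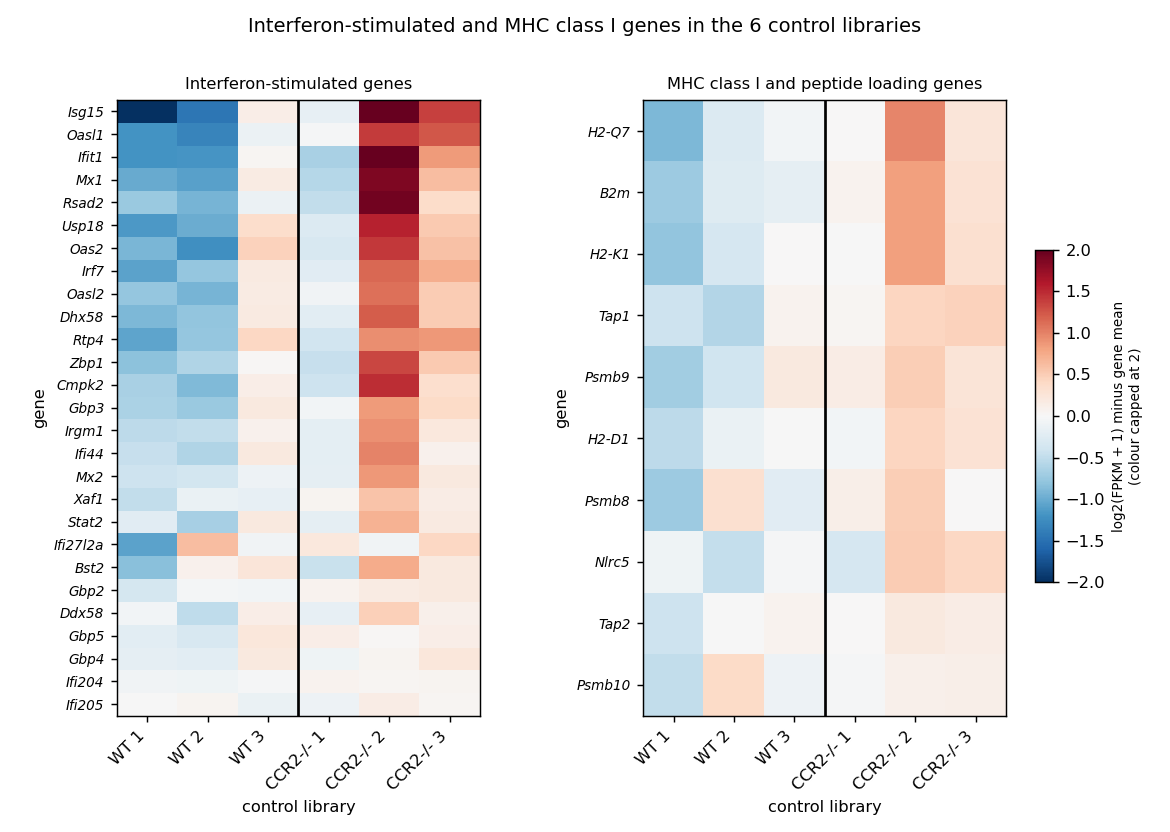
Log2(FPKM + 1) of interferon-stimulated and MHC class I genes (rows, ordered by log2 fold change) in each of the 6 control libraries (columns), minus the gene's mean over the 6, with colours capped at 2. WT replicates 1 and 2 are mostly below the mean, CCR2-/- replicate 2 is the highest for most genes, and WT replicate 3 and CCR2-/- replicate 1 lie close together.

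Lymphocyte genes were weakly expressed and mostly positive. All 14 T-cell markers tested had positive values (median 0.22), 3 at an unadjusted p under 0.05 (2.81% of all genes higher). Cd4, the helper T-cell coreceptor also carried by some myeloid cells, measured 0.195, 0.173 and 0.331 FPKM in WT and 1.15, 0.823 and 1.07 FPKM in CCR2-/- controls. The control groups did not overlap, with a log2 fold change of 0.71 (SE 0.22, adjusted p = 0.797 from limma) in controls and 0.42 (unadjusted p = 0.0156) under NMBA. With NMBA mice included, the 9 WT libraries spanned 0.173 to 1.35 FPKM for Cd4. All 3 CCR2-/- controls lay within that range, and 3 of 9 CCR2-/- libraries lay above it. Cd3e, a chain of the T-cell receptor complex, had 0.75 without overlap in controls and 0.18 under NMBA. Cd8a had 0.21 (unadjusted p = 0.132 from limma) at levels up to 0.477 FPKM.

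Of 8 genes of PD-1 and other checkpoints, 6 were positive with a median of 0.15 and none at an unadjusted p under 0.05. Cd274, which encodes PD-L1, measured 1.26, 0.495 and 1.29 FPKM in WT and 0.939, 1.76 and 1.39 FPKM in CCR2-/- controls. Pdcd1, which encodes PD-1, measured 0.126, 0.0721 and 0.218 FPKM in WT and 0.0747, 0.491 and 1.11 FPKM in CCR2-/- controls. Both pairs of groups overlap, and the log2 fold changes were 0.24 and 0.40.

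Of 7 B-lineage genes 6 were positive (median 0.31), none at an unadjusted p under 0.05. Igkc, the kappa constant region, measured 4.57, 25 and 23.9 FPKM in WT and 24.6, 37.1 and 42.4 FPKM in CCR2-/- controls. Only WT replicate 2 reached the knockout range, and WT replicate 1 stood far below it. Immunoglobulin variable segments, a group formed after their values were seen, included 144 that were tested, of which 125 were positive in controls (median 0.52) and 124 under NMBA (median 0.39). In controls 21 were higher at an unadjusted p under 0.05 (2.81% of all genes) and 22 had all knockout values above all WT values (4.47% of all genes). Their summed level was 38.3, 104 and 254 FPKM in WT and 173, 397 and 429 FPKM in CCR2-/- controls. Such segments are similar in sequence and expanded by clones, so single members are uncertain.

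Granulocyte and mast cell lists held single genes whose control groups did not overlap, 2 of 8 neutrophil, 2 of 4 eosinophil and 2 of 12 mast cell markers (4.47% of all genes above and 4.74% below). Cd177, a surface protein of neutrophils also made by some epithelia, measured 0.399, 0.822 and 1.68 FPKM in WT and 1.79, 4.79 and 5.46 FPKM in CCR2-/- controls (1.31, adjusted p = 0.931 from limma). S100a9 and Ltf, abundant in neutrophils, had 0.53 and -0.03 with overlap. Of 4 eosinophil markers 3 were positive, while Ear2, a ribonuclease of eosinophils, had -0.67 without overlap (adjusted p = 1) and -0.89 under NMBA (unadjusted p = 0.0044). Of 12 mast cell markers 6 were positive, from -0.32 for the protease gene Mcpt4 to 1.25 for Mcpt1, another protease, both with overlap. The tryptase gene Tpsab1 (0.63) and Ms4a2, the beta chain of the IgE receptor (0.39), were without overlap and at an unadjusted p of 0.0318 and 0.0139 (limma).

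**Figure D4:**
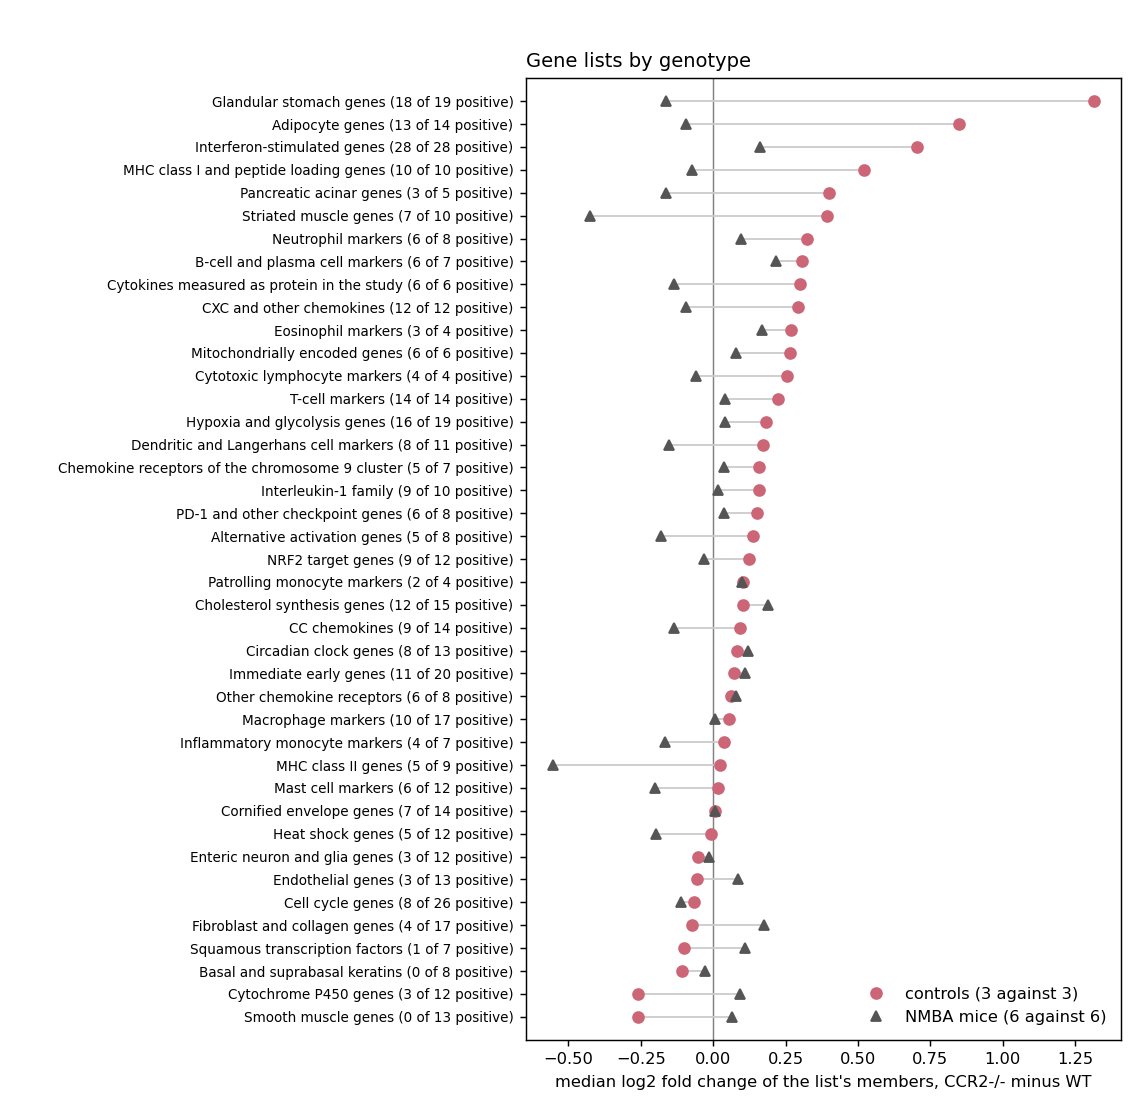
Median log2 fold change of CCR2-/- against WT (x axis) for each gene list with at least 4 tested members (rows, with the count of members positive in controls), in controls (circles) and under NMBA (triangles). Glandular stomach, adipocyte, interferon-stimulated and MHC class I genes have the highest medians in controls (1.32, 0.85, 0.70 and 0.52), and under NMBA these are -0.16, -0.09, 0.16 and -0.07.

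Keratins of the squamous epithelium showed small values. All 8 keratins tested had negative values, but the median was -0.11 and none had an unadjusted p under 0.05. Without WT replicate 2 the median was -0.020 with 4 of 8 positive, and with the glandular covariate it was 0.12 with 5. Krt10, a suprabasal keratin, measured 8860, 6397 and 7211 FPKM in WT and 6920, 6571 and 6916 FPKM in CCR2-/- controls. Krt13 had -0.02 and Krt5, the basal keratin, had -0.06.

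Some cornified envelope genes had lower levels in knockout mice. Sprr1a, a precursor of that envelope, measured 974, 773 and 619 FPKM in WT and 385, 367 and 488 FPKM in CCR2-/- controls, a log2 fold change of -0.92 (SE 0.30, adjusted p = 0.801 from limma) with no overlap in controls and 0.15 under NMBA. With Cnfn and Lce3a, Sprr1a made up the 3 of 14 that were lower at an unadjusted p under 0.05 (2.30% of all genes). The joined entry of Lce3f and Lce3e, late cornified envelope genes that the table does not separate, measured 370, 489 and 297 FPKM in WT and 107, 215 and 248 FPKM in CCR2-/- controls. Its log2 fold change was -1.07 (SE 0.29, adjusted p = 0.623 from limma) and -0.74 under NMBA (unadjusted p = 0.00212). Sprr3, at 2677 to 3665 FPKM, had 0.01. Of 7 squamous transcription factors 1 was positive, and Sox2, which directs esophageal and forestomach identity, had -0.48 without overlap (adjusted p = 0.967).

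Glandular stomach genes had the largest median of all lists (1.32, 18 of 19 positive), with 3 higher at an unadjusted p under 0.05 (2.81% of all genes) and 0 passing. Gkn2, a secreted gastrokine, measured 744, 594 and 2678 FPKM in WT and 3113, 6258 and 3893 FPKM in CCR2-/- controls, without overlap (adjusted p = 0.931 from limma). Pgc measured 1507, 3976 and 38093 FPKM in WT, spanning all CCR2-/- controls. The list's sums of 4686 to 53258 FPKM in WT and 27334 to 45050 FPKM in CCR2-/- controls overlap. Without WT replicate 3 the median was 2.12 with 14 members at an unadjusted p under 0.05, and without WT replicate 1 it was 0.61 with 0. The forestomach adjoins the glandular stomach, and the share of each in a sample was not measured.

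Other tissue layers varied by library. Adipocyte genes had a median of 0.85 (13 of 14 positive), with summed levels of 88.6, 199 and 127 FPKM in WT and 172, 190 and 385 FPKM in CCR2-/- controls, so WT replicate 1 was lowest and CCR2-/- replicate 3 highest. Without the one the adipocyte median was 0.45, without the other 0.42 and with the glandular covariate 0.39. Library weights moved the members higher at an unadjusted p under 0.05 from 1 to 8, and the share of all genes from 2.81% to 4.87%. Adipoq, which encodes adiponectin, measured 0.353, 14.4 and 5.94 FPKM in WT and 12.7, 9.41 and 41.2 FPKM in CCR2-/- controls. All 13 smooth muscle genes were negative (median -0.26), none at an unadjusted p under 0.05, and their sums of 8591 to 12150 FPKM in WT and 7119 to 12510 FPKM in CCR2-/- controls overlap. Without WT replicate 2 the smooth muscle median was -0.032 with 4 of 13 positive, and without CCR2-/- replicate 2 or 3 it was -0.098 or -0.10, with 4 or 3. Of 17 fibroblast and collagen genes 4 were positive (median -0.08), with Col1a1 at -0.61 (SE 0.46). Endothelial genes had a median of -0.06, and neuron and glia genes -0.05.

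**Figure D5:**
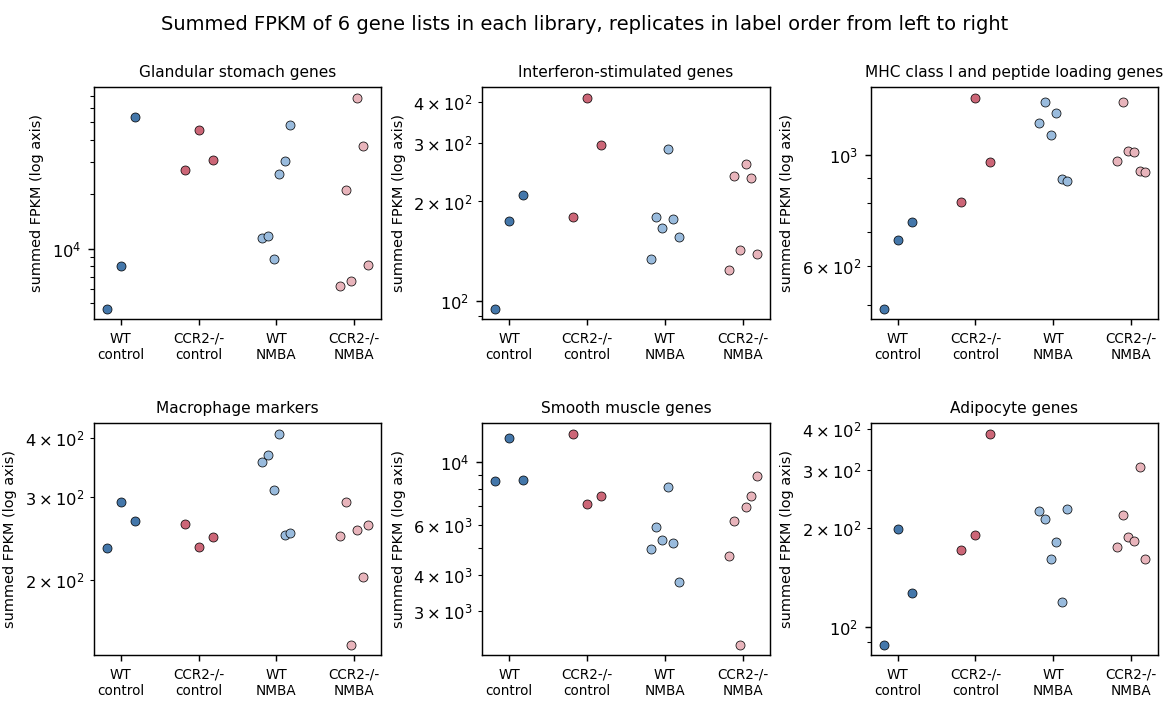
Summed FPKM (y axis, log scale) of 6 gene lists in each of the 18 libraries (points) by group (x axis). MHC class I sums of the 3 WT controls (493 to 734 FPKM) lie below all other libraries, glandular sums of WT controls span 4686 to 53258 FPKM, and macrophage sums of the control genotypes overlap.

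Metabolic lists held a few genes that also returned under NMBA. Of 19 hypoxia and glycolysis genes 16 were positive (median 0.18), 5 of them at an unadjusted p under 0.05 (2.81% of all genes higher). Pfkl, the liver-type phosphofructokinase, measured 25.3, 33.2 and 33.4 FPKM in WT and 41.1, 43.8 and 46.8 FPKM in CCR2-/- controls. The groups did not overlap, with a log2 fold change of 0.51 (SE 0.13, adjusted p = 0.566 from limma) in controls and 0.35 (unadjusted p = 0.00127) under NMBA. Pkm, the most abundant of the list, had 0.12. Among 12 cytochrome P450 genes 3 were positive (median -0.26), and Cyp1a1, induced through the aryl hydrocarbon receptor, measured 2.71, 4.22 and 4.17 FPKM in WT and 2.04, 0.935 and 0.465 FPKM in CCR2-/- controls (-1.18, adjusted p = 1). Cholesterol synthesis genes had a median of 0.10, with the regulator Insig1 at 0.40 in controls and 0.39 under NMBA (unadjusted p = 0.0345 and 0.00589 from limma). Medians of cell cycle (-0.07), heat shock (-0.01), NRF2 target (0.12), circadian clock (0.08) and immediate early genes (0.07) were small. Mki67, a proliferation marker, measured 5.55, 5.27 and 7.81 FPKM in WT and 4, 6.46 and 7.82 FPKM in CCR2-/- controls.

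The largest differences that did not pass were taken from genes of at least 1 FPKM on average with an unadjusted p under 0.01 and no overlap, 55 higher and 49 lower. Of the 8 largest in the higher direction, 5 had the same sign under NMBA and 1 of those p under 0.05. Chil4, a chitinase-like protein of alternatively activated macrophages and of mucosal epithelium, measured 8.52, 21.8 and 69.5 FPKM in WT and 82.3, 396 and 298 FPKM in CCR2-/- controls. Its log2 fold change was 3.11 (SE 1.05, adjusted p = 0.801 from limma) in controls and -0.23 under NMBA. Arg1 and Retnla, other genes of alternative activation, had 0.75 and -0.21 in controls. Scgb2b20 and Scgb1b20 are neighbouring secretoglobin genes, and the second is listed at 0 in all 3 WT controls against 0.742, 7.32 and 2.34 FPKM in CCR2-/- controls. Kcnj16, a potassium channel, measured 1.67, 1.68 and 3.27 FPKM in WT and 9.43, 17.6 and 10.3 FPKM in CCR2-/- controls (2.06, adjusted p = 0.801) and had -0.19 under NMBA. Tpm3-rs7, a tropomyosin-related sequence, was the exception, with 1.87 in controls and 2.05 under NMBA (unadjusted p = 0.000225 from limma). Igkv6-32 and Igkv10-94, kappa variable segments, had 2.02 and 1.85, and Oasl1 is described above. Within each genotype, Chil4 and Kcnj16 ranked the control libraries in the same order as the glandular sums. The others of these 8 did not keep that order in both genotypes. The part of tissue content in these values was not tested.

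Of the 8 largest in the lower direction among genes with an ordinary symbol, all had the same sign under NMBA and 4 had p under 0.05 there. Besides Ppp2r3d, Lyz1 and the Lce3 entry, these included Agpat4, an acyltransferase of phospholipid synthesis, at 4.54, 6.57 and 7.28 FPKM in WT and 4.13, 1.21 and 0.623 FPKM in CCR2-/- controls. Its log2 fold change was -1.41 (SE 0.46, adjusted p = 0.801 from limma) in controls and -0.996 (unadjusted p = 0.00742) under NMBA. Hspb6, a small heat shock protein of muscle, measured 43.6, 43.6 and 43.7 FPKM in WT and 13.5, 13.2 and 30.5 FPKM in CCR2-/- controls (-1.26). Hoxa7, a homeobox gene, had -1.30, and Olfml3, a secreted matrix protein, had -1.23. Rnaseh2c, a subunit of the RNase H2 enzyme that removes ribonucleotides from DNA, measured 2.99, 7.74 and 3.9 FPKM in WT and 1.29, 0.975 and 1.87 FPKM in CCR2-/- controls. Its log2 fold change was -1.24 (SE 0.33, adjusted p = 0.623 from limma) in controls and -0.03 under NMBA, with an unadjusted p of 0.00883 for the difference between the 2.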

How the data were processed

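RNA from 18 forestomachs (TruSeq kit, whole tissue) was sequenced by the authors, who deposited 1 table of FPKM for 57234 gene models and assembled regions, with replicates not pooled. Per the labels, the submitters' processing notes name mm10 and GRCm38, while the aligner and annotation release are not given in the sources used here. FPKM carries no counts, so no count model was run and no counting interval is given.
The 28934 entries with a reference gene were used, of which 1146 join several symbols. A gene was tested when 3 or more of the 18 libraries had 0.5 FPKM or above (14765 genes). On log2(FPKM + 1), limma 3.58.1 (R 4.3.3, trend on expression) fitted 4 groups as 1 factor, and two-sided p-values were adjusted over all genes by Benjamini-Hochberg with a threshold of 0.05. The NMBA contrast uses other mice but shares the estimate of spread.
Genes named are Ccr2, called genes, the 8 largest uncalled differences each way, genes within 1000 kb of Ccr2 and the most abundant members of lists. The uncalled differences had an unadjusted p under 0.01, at least 1 FPKM, no overlap and an ordinary gene symbol. Other genes named were chosen after their values were seen, among them single list members, genes that returned under NMBA and the chromosome 14 entries. The 42 lists name 615 symbols, 88 without an entry of their own. The members and lists were chosen with earlier results of these data known. Lists are described by counts and medians without a set test.
Replicate numbers shared by the genotypes did not pair the libraries, since same-numbered controls correlated at -0.08, -0.26 and 0.11 in their deviations from group means. The test was tried on simulated data. Alternatives changed the pseudocount, filter, scaling, weights, block and libraries used. Promoters come from RefSeq, and plots were made in Python 3.11.15 (matplotlib 3.10.9). Single genes withheld for evaluation are not reported here, in the text or in the plots of single genes.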

Additional observations from a re-analysis of the deposited data

Results flagged for a closer look

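In groups of 6, the highest or lowest library was set against its nearest neighbour for each named gene in the NMBA mice, and 9 of 74 groups passed Dixon's 95% critical value, a test that chance passes in about 1 of 20 groups. The control groups of 3 are too small for it. Lars2 stood out at 505 FPKM in WT NMBA replicate 6, against 48.6 FPKM in the next library, and at 252 FPKM in CCR2-/- NMBA replicate 5. WT NMBA replicate 6 was also the highest for Kcnj16 (11.1 FPKM) and Scgb1b20 (0.941 FPKM) and the lowest for Lztfl1 (1.74 FPKM). Scgb1b20 reached 0.745 FPKM in CCR2-/- NMBA replicate 4, Igkv6-32 reached 7.99 FPKM in CCR2-/- NMBA replicate 1 and Clec3b reached 29.7 FPKM in WT NMBA replicate 4. Rnaseh2c was lowest in WT NMBA replicate 2, at 2.05 FPKM.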

How the results depend on the processing

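Ccr2 passed as lower under each alternative run. Other calls in controls depended on the setting. Against 0 genes higher, 2 passed with the 6 control libraries alone (Gm16867 and Gm27177), 1 with library weights (Tmem254b) and, with a glandular stomach score as covariate added after seeing the data, 4 (Xcr1, Tmem254b, Gm16867 and Gm27177). Leaving out 1 library gave 0 to 2 genes higher and 1 to 4 lower, all the added ones without CCR2-/- control replicate 1 (Scgb1b20 and Gm14292 higher, Gm10073, Gm22581 and Zfp422 lower), and 0 to 1 for the difference between the genotype effects. With all entries of the table, also added later, 16 entries passed under NMBA in place of 7, and with the 12 NMBA libraries alone 3. Alternatives were run for list medians and for Ccr2, its neighbours and the largest differences, not for each list member named. Among those genes, the ones that turned direction were neighbours of Ccr2. With library weights the log2 fold change of Ccr1 in controls was -0.00139, and with the covariate the log2 fold change of Clec3b in controls was 0.00112, while Gm10052 had 0.11 and Scp2-ps2 had -0.050. Leaving out 1 library gave log2 fold changes of -0.053 to 0.13 for Ccr1, -0.20 to 0.013 for Clec3b, -0.70 to 0.090 for Fyco1, -0.15 to 0.074 for Gm10052, -0.048 to 0.15 for Lztfl1, -0.15 to 0.20 for Sacm1l and -0.058 to 0.21 for Scp2-ps2. Of the list medians under all alternatives, 704 moved by less than the replicate spread and 52 by more. With the replicate block 1 gene was lower (Ccr2, adjusted p = 0.00366 from limma) and 0 were higher, and no control library correlated best with its own number. The causes were not tested. FPKM without counts leaves the precision of genes below about 1 FPKM unknown, and groups of 3 limit all else.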
